A study of Mus musculus with 9 samples.

Results

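The rows described here are the microRNA and small nucleolar RNA (snoRNA) genes of an RNA-seq table of mouse brown fat, white fat and soleus muscle. A gene belonged to the group if its symbol was Mir followed by a digit or began with Mirlet, Snora or Snord. This rule took in 565 of the 17753 genes of the table, 485 with a microRNA symbol and 80 with a snoRNA symbol. The 19 that reached 1 FPKM (fragments scaled to transcript length and library size) in at least 3 libraries are reported in full. There were 3 libraries of each tissue, 9 in all, from C57BL/6J wild-type males at 3 months of age, with no treatment. The labels give 3 mice and do not say which library came from which mouse, so p-values measure the spread between these libraries.

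MicroRNAs are cut from hairpins in longer primary transcripts by Drosha and then Dicer, and the mature strand, held by an Argonaute protein, pairs with target messages mainly through its seed, bases 2 to 8. Most snoRNAs of mammals are trimmed out of the introns of host genes. Those named Snora are mostly H/ACA guides for pseudouridylation, and those named Snord are mostly C/D guides for ribose methylation. The libraries came from total RNA and a messenger RNA kit, so the values belong to gene rows and do not measure mature microRNAs. The RefSeq lengths of the 19 reported rows ran from 70 to 164 bases.

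Mature sequences from RefSeq (GRCm38.p6) are printed for 10 of the 12 reported microRNAs. None is printed for Mir145a or Mir1a-2, which does not mean that RefSeq lacks one. The sequences are shown because they say what product each hairpin row is named for. Capitals mark the seed, and the 14 printed sequences have 14 different seeds.
mmu-miR-133b-3p: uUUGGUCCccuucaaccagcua
mmu-miR-133b-5p: gCUGGUCAaacggaaccaaguc
mmu-miR-365-3p: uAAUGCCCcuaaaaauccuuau
mmu-miR-365-1-5p: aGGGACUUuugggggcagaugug
mmu-miR-1941-3p: cAUCUUAGcaguaucucccau
mmu-miR-1941-5p: aGGGAGAUgcugguacagaggcuu
mmu-miR-3065-5p: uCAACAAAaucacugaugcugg
mmu-miR-1839-5p: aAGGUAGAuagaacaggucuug
mmu-miR-1932: gUUGCGGAcagcgcuaggucgg
mmu-miR-30c-5p: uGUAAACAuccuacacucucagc
mmu-miR-30c-2-3p: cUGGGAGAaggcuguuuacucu
mmu-miR-3966: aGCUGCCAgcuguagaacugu
mmu-miR-703: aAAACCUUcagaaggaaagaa
mmu-miR-761: gCAGCAGGgugaaacugacaca

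Most of the 565 rows held nothing. In all 9 libraries 517 were listed at 0, which is 91.5% of them against 18.1% of all genes. The share was 94.4% for microRNA rows and 73.8% for snoRNA rows. Of the 48 rows above 0 somewhere, 19 are reported, 15 reached 1 FPKM in only 1 or 2 libraries, and 14 never reached it. The 12 reported microRNA rows were Mir133b, Mir145a, Mir1839, Mir1932, Mir1941, Mir1a-2, Mir3065, Mir30c-2, Mir365-1, Mir3966, Mir703 and Mir761. The 7 snoRNA rows were Snora16a, Snora30, Snora31, Snora78, Snora7a, Snora81 and Snord22. Just outside the threshold, Mir34a reached 1.45 FPKM and Mir3083 1.04, each in 2 libraries. Just inside it, Mir145a lay at 1.12 FPKM and Mir3966 at 1.10 in the lowest of the 3 libraries that counted. A threshold of 0.5 FPKM would report 23 rows and 2 FPKM would report 15. Some rows reached 1 FPKM in 1 tissue only: Mir1941 in brown fat, Mir3966 in white fat, and Mir133b, Mir1a-2 and Mir145a in soleus. The rule took these rows in through the tissue where they are high. Their differences in favour of that tissue are therefore no independent finding, and the counts of called rows below include them.

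The libraries matched their tissue labels by most marker genes. Ucp1, the uncoupling protein of brown fat, had a mean of 3685 FPKM in brown fat, beside 15 in white fat and 2.06 in soleus. Cox8b, another brown fat marker, was also high in soleus, with a mean of 4710 FPKM. Its brown fat mean was 6387 and its white fat mean 66.0. The summed FPKM of 5 white fat genes was at least 4551 in white fat and at most 158 elsewhere. That of 4 slow muscle genes was at least 21292 in soleus and at most 6.07 elsewhere. The summed FPKM of 4 fast muscle genes was 25149 to 30491 in soleus and 1.61 to 3.41 in white fat, but 25.5 to 192 in brown fat. Markers of other cell types also differed by tissue. The summed FPKM of 5 macrophage markers was 398 to 495 in white fat, beside 38.4 to 44.8 for brown fat and 29.8 to 41.1 for soleus. That of 5 endothelial markers was 82.8 to 86.6 in brown fat, beside 38.5 to 60.1 in white fat and 40.4 to 44.5 in soleus. None of these markers was at 0 in all libraries of a tissue, and their part in the differences below was not tested. In such bulk samples, fewer cells of a type and less RNA per cell cannot be told apart. All 9 libraries were fitted together with limma on log2(FPKM + 1), and all fold changes below are on that scale, which understates the change of low rows. A row is called at a Benjamini-Hochberg adjusted p under 0.05 over the 9913 genes tested. Between these tissues most genes differ: limma called 72.8% of tested genes between brown and white fat, 78.5% between brown fat and soleus and 84.2% between white fat and soleus.

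**Figure D1:**
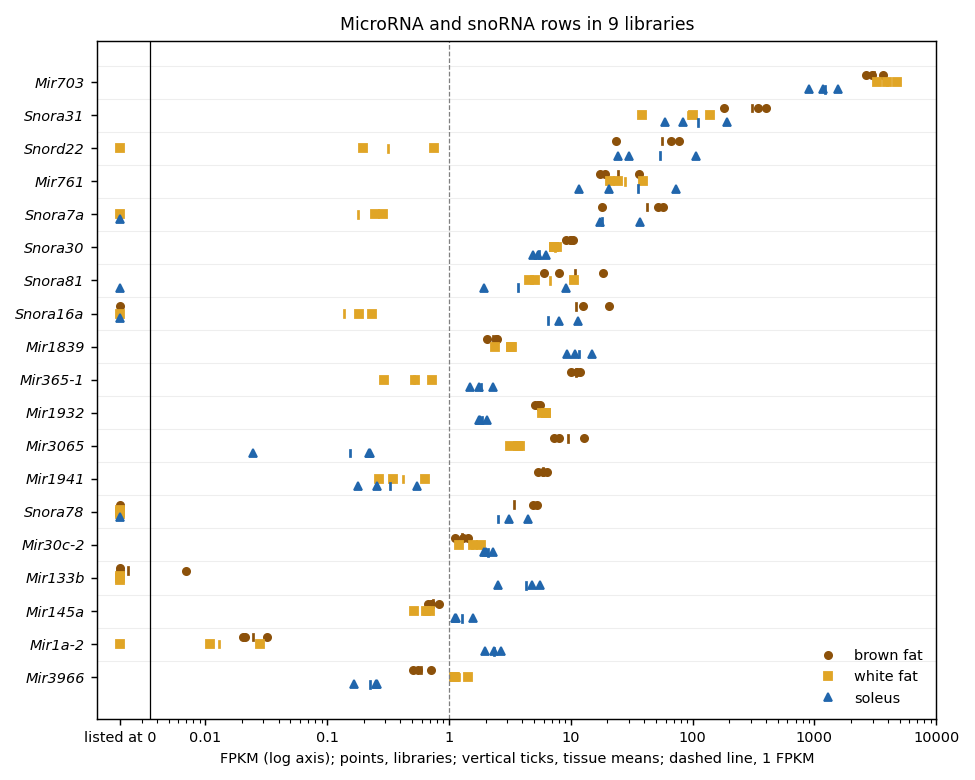
FPKM of the 19 reported rows (log axis), ordered by their mean over tissues. Each point is a library, vertical ticks are tissue means, the dashed line is 1 FPKM, and points left of the solid line are listed at 0. Mir703 is the highest row in every library, and Snora7a and Snord22 lie under 1 FPKM in white fat alone among the tissues, apart from a Snora7a value listed at 0 in soleus.

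Brown fat and white fat differed at 8 of the 19 rows, a share of 42.1% beside 72.8% for all tested genes. Of the 19, 7 were higher in brown fat and 1 was lower, while limma called 38% of tested genes higher and 34.8% lower. The higher rows were Mir365-1, Mir1941, Mir3065, Snora7a, Snord22, Snora31 and Snora30, and the lower one was Mir3966. The median difference of the 19 was 0.38 log2 units, against 0.03 for all tested genes. When each library was rescaled to the same sum (TPM), which moved the median of all tested genes from 0.03 to -0.50, limma called 6 higher and 5 lower. Groups did not overlap for 9 of the 19 rows and for 77.4% of tested genes.

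Mir365-1 made the clearest contrast between the fats. miR-365 is encoded with miR-193b in a cluster known for its high level in brown fat. The Mir365-1 row stood at 12, 11.2 and 9.99 FPKM in the brown fat libraries, 0.524, 0.729 and 0.294 in the white fat libraries and 1.75, 2.30 and 1.49 in the soleus libraries. No tissue overlapped another, with brown fat highest and white fat lowest. Brown fat exceeded white fat by 3.00 log2 units (SE 0.13, limma adjusted p = 8.3e-09) and soleus by 2.09 (SE 0.13, adjusted p = 6.8e-08). White fat lay below soleus, with a difference of -0.91 (SE 0.13, adjusted p = 5.43e-05). Mir365-2 shares both seeds with Mir365-1 but lies on another chromosome, 11 against 16. It reached only 0.551, 0.940 and 0.719 FPKM in brown fat, so it stayed under the threshold. Its highest value in white fat was 0.207 and in soleus 0.0475, so brown fat did not overlap either tissue there as well. Mir193b, 4239 bases from Mir365-1, was listed at 0 in all 9 libraries.

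Mir1941 was above 1 FPKM in the 3 brown fat libraries and in no other, so it entered the reported set through brown fat alone. It stood at 5.94, 5.43 and 6.42 FPKM in the brown fat libraries, 0.268, 0.350 and 0.636 in the white fat libraries and 0.258, 0.545 and 0.181 in the soleus libraries. Brown fat lay above every other library, while white fat and soleus overlapped. The differences of brown fat were 2.29 log2 units from white fat (SE 0.12, limma adjusted p = 3.64e-08) and 2.39 from soleus (SE 0.12, adjusted p = 1.47e-08). The row lies in an intron of the noncoding gene Gm35853 on its own strand, for which no value was found. It also lies in an intron of the keratin gene Krt80, on the other strand. Krt80 ran the other way, at 0.286 to 0.531 FPKM in brown fat against 1.98 to 2.68 in white fat and 1.34 to 1.55 in soleus.

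Mir3065 was graded over the 3 tissues. Its row stood at 12.9, 8.05 and 7.26 FPKM in the brown fat libraries, 3.87, 3.16 and 3.66 in the white fat libraries and 0.223, 0.219 and 0.0245 in the soleus libraries. The 3 groups did not overlap. Brown fat exceeded white fat by 1.15 log2 units (SE 0.17, limma adjusted p = 0.000108) and soleus by 3.14 (SE 0.17, adjusted p = 2.32e-08), and white fat exceeded soleus by 1.98 (SE 0.17, adjusted p = 8.13e-07). The hairpin overlaps Mir338 on the opposite strand, inside an intron of the kinase gene Aatk. No strand setting is given in the sources used here, so reads of the pair cannot be told apart.

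Mir3966 was the reported row that white fat held at the highest level of the 3 tissues with every comparison called. It stood at 1.45, 1.10 and 1.11 FPKM in white fat, 0.718, 0.560 and 0.508 in brown fat and 0.253, 0.165 and 0.255 in soleus. The white fat values were only 2.12 to 7.70 times what 1 fragment on the RefSeq length would give. In brown fat they were 1.49 to 3.85 times that and in soleus 0.528 to 1.15 times. The row was taken in through white fat alone, so its excess there is no independent finding. White fat exceeded soleus by 0.86 log2 units (SE 0.08, limma adjusted p = 2.7e-06), and brown fat lay below white fat by a difference of -0.47 (SE 0.08, adjusted p = 0.000437) and above soleus by 0.38 (SE 0.08, adjusted p = 0.00169). The nearest gene on its strand is Dcn, which encodes the matrix proteoglycan decorin, 56047 bases away. Dcn was also highest in white fat, at 621 to 819 FPKM, followed by 174 to 243 for soleus and 84.5 to 111 for brown fat.

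Soleus differed from brown fat at 14 of the 19 rows, or 73.7% beside 78.5% of tested genes. Of these, 9 were higher and 5 lower in brown fat, where 52.9% of tested genes were called higher and 25.6% lower. Soleus differed from white fat at 13 of the 19, or 68.4% beside 84.2%. Here 5 were higher and 8 lower in white fat, where 54.5% of tested genes were called higher and 29.7% lower. These comparisons share the soleus libraries. Groups did not overlap for 12 rows in each, against 81.1% and 85.6% of tested genes. The microRNA rows lower in brown fat than in soleus were Mir133b, Mir1a-2, Mir1839, Mir145a and Mir30c-2, and the same 5 were lower in white fat, joined by Mir365-1.

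**Figure D2:**
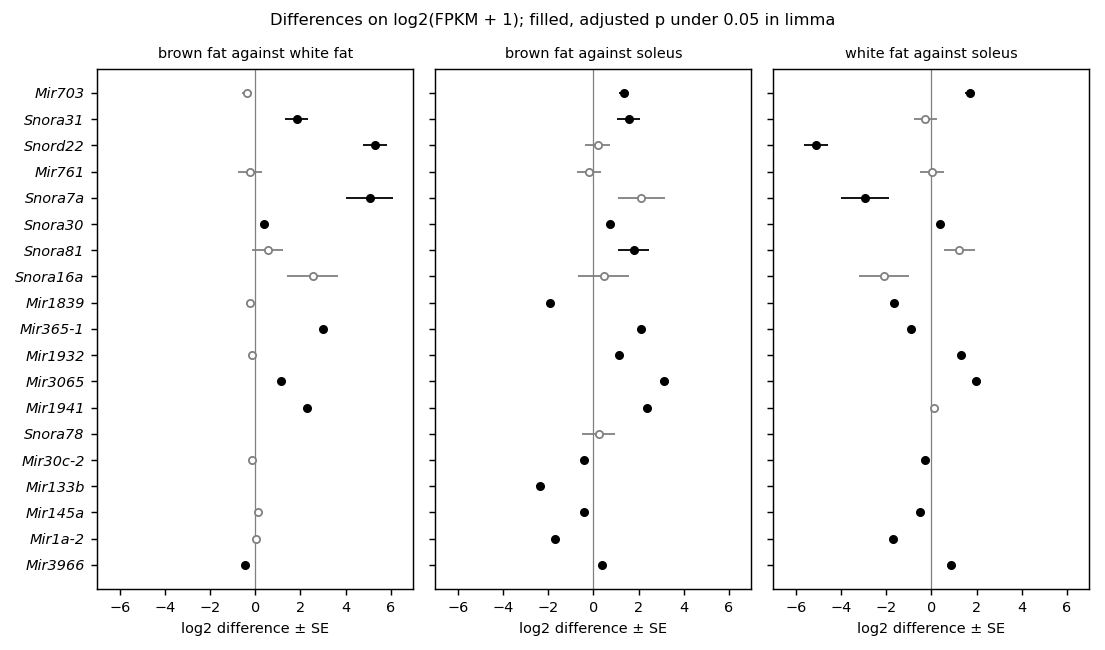
Differences between tissues on the log2(FPKM + 1) scale with their SE (horizontal bars, often within the point), for each reported row with no tissue listed wholly at 0. Filled points have a limma adjusted p under 0.05. Mir1a-2 and Mir1839 lie left of 0 in both comparisons with soleus, Mir133b in the one of brown fat, and Snora7a and Snord22 have the largest differences that involve white fat.

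The muscle microRNAs were the rows nearest to absence in fat. miR-1 and miR-133 are made in striated muscle, where they act in differentiation and growth. Mir133b stood at 2.51, 5.60 and 4.84 FPKM in soleus. Of the 6 fat libraries, 5 listed it at 0 and brown fat 1 gave 0.00693. On the log2 scale brown fat minus soleus was -2.36 (SE 0.18, limma adjusted p = 4.67e-07). No fold is given against white fat, where all 3 libraries were listed at 0. The Mir133b hairpin lies within an exon of the noncoding gene Gm28653, to which it is identical over its 119 bases. Mir1a-2 stood at 1.96, 2.66 and 2.35 FPKM in soleus, 0.0214, 0.0323 and 0.0203 in brown fat, and 0.0280, 0 and 0.0108 in white fat. Both fats lay below soleus, by differences of -1.69 (SE 0.08, adjusted p = 8.34e-09) and -1.71 (SE 0.08, adjusted p = 6.66e-09). Mir133b and Mir1a-2 were taken in through soleus alone, so their differences from soleus are no independent finding. The fast muscle sum was 25.5, 192 and 102 FPKM in brown fat 1, 2 and 3. The one trace of Mir133b in fat was in brown fat 1, while Mir1a-2 had its highest brown fat value in brown fat 2. These values were only 0.0521 and 0.0846 of what 1 fragment on the RefSeq length would give. The part of muscle tissue in them was not tested.

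Most other muscle microRNA genes were listed at 0. Of 9 such genes on a list, 7 were in the table, 3 were above 0 somewhere and 2 were reported. Mir206, 3687 bases from Mir133b, was listed at 0 in all 9 libraries, as were Mir133a-1, Mir208b and Mir499. Mir486 was above 0 in soleus 2 alone, at 19.0 FPKM. Of 26 microRNA genes listed for fat tissue, 22 were in the table, 6 were above 0 somewhere and 3 were reported, namely Mir365-1, Mir145a and Mir30c-2. Mir1a-2 shares its place with Mir1b on the opposite strand, which was listed at 0 throughout.

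Mir1839 was also higher in soleus. Its row stood at 9.31, 10.9 and 14.8 FPKM there, 2.05, 2.43 and 2.47 in brown fat, and 3.20, 2.40 and 3.32 in white fat. The fats overlapped each other and lay wholly under soleus. The differences from soleus were -1.91 log2 units for brown fat (SE 0.15, limma adjusted p = 4.59e-07) and -1.66 for white fat (SE 0.15, adjusted p = 1.19e-06). The hairpin lies within an exon of the noncoding gene 2900076A07Rik, to which it is identical over its 73 bases.

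Mir1932 was lower in soleus than in either fat. It stood at 5.34, 5.10 and 5.64 FPKM in the brown fat libraries, 5.78, 6.31 and 6.30 in the white fat libraries and 1.80, 1.76 and 2.05 in the soleus libraries. The fats exceeded soleus by 1.15 log2 units (brown, SE 0.07, limma adjusted p = 7.32e-08) and 1.31 (white, SE 0.07, adjusted p = 1.99e-08). Although the 2 fats did not overlap, their difference of -0.16 did not pass (SE 0.07, adjusted p = 0.0594). It was called in 5 of 19 alternatives, with -0.75 after TPM rescaling (adjusted p = 9.64e-05) and -0.20 without white fat 1 (adjusted p = 0.0497). Mir1932 had the smallest spread of all 19 rows, with a residual SD of 0.07 log2 units.

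A pair of low rows differed by less. Mir145a, from a cluster known in smooth muscle, stood at 1.15, 1.59 and 1.12 FPKM in soleus, 0.709, 0.669 and 0.825 in brown fat and 0.644, 0.512 and 0.702 in white fat. Its differences from soleus were -0.39 (brown, SE 0.09, limma adjusted p = 0.00222) and -0.49 (white, SE 0.09, adjusted p = 0.000412). Since the row was taken in through soleus alone, they are no independent finding. Mir30c-2 ran from 1.94 to 2.29 FPKM in soleus, 1.11 to 1.42 in brown fat and 1.20 to 1.83 in white fat. Brown fat lay below soleus by a difference of -0.43 (SE 0.10, adjusted p = 0.00215). The difference of white fat from soleus, -0.29 (SE 0.10, adjusted p = 0.0191), was 0.09 and not called after TPM rescaling, and was not called without white fat 1 or without soleus 2. The Mir30c-2 hairpin lies within an exon of the noncoding gene Gm27028, to which it is identical over its 84 bases.

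Mir703 stood far above every other reported row, and its hairpin is nearly identical to part of a messenger RNA. It was at 2654, 3657 and 2997 FPKM in the brown fat libraries, 3911, 3252 and 4729 in the white fat libraries and 1566, 1177 and 898 in the soleus libraries. The row held 0.786% to 1.07% of all FPKM in brown fat libraries, 1.52% to 2.13% in white fat and 0.275% to 0.507% in soleus. It was the highest gene of the whole table in all 3 white fat libraries. Both fats lay above soleus, brown fat by 1.38 log2 units (SE 0.22, limma adjusted p = 0.000173) and white fat by 1.73 (SE 0.22, adjusted p = 2.47e-05). The fats overlapped, and their difference of -0.35 did not pass (SE 0.22, adjusted p = 0.18). It was called after TPM rescaling (-0.94, adjusted p = 0.00243) and with array weights (-0.46, adjusted p = 0.0417).

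The Mir703 hairpin matched the 3′ UTR of Eef1a1 in 107 of 109 aligned positions, 98.2%. Eef1a1 encodes the elongation factor that brings aminoacyl-tRNA to the ribosome. The match spans bases 1608 to 1715 of a transcript of 1794 bases whose coding part ends at 1509. Of the microRNA gene models of GENCODE, Gm26377, Gm26384, Gm24951 and Gm24276 also match the whole hairpin, at 98.2%, 96.4%, 93.7% and 92.8% identity. Reads could be divided between these genes or given to any of them, so the Mir703 value is uncertain. In the genome Mir703 lies in an intron of Cfap299, on the other strand. Eef1a1 stood at 707, 775 and 687 FPKM in the brown fat libraries, 885, 773 and 858 in the white fat libraries and 166, 146 and 138 in the soleus libraries. Limma called it higher than soleus in brown fat, by 2.27 log2 units (SE 0.11, adjusted p = 7.66e-09), and in white fat, by 2.48 (SE 0.11, adjusted p = 3.38e-09). Between the fats it was not called (difference -0.21, SE 0.11, adjusted p = 0.0954). The Mir703 value was 3.76 to 4.72 times that of Eef1a1 in brown fat, 4.21 to 5.51 times in white fat and 6.51 to 9.44 times in soleus. The ratio in soleus lay above that in all 6 fat libraries.

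**Figure D3:**
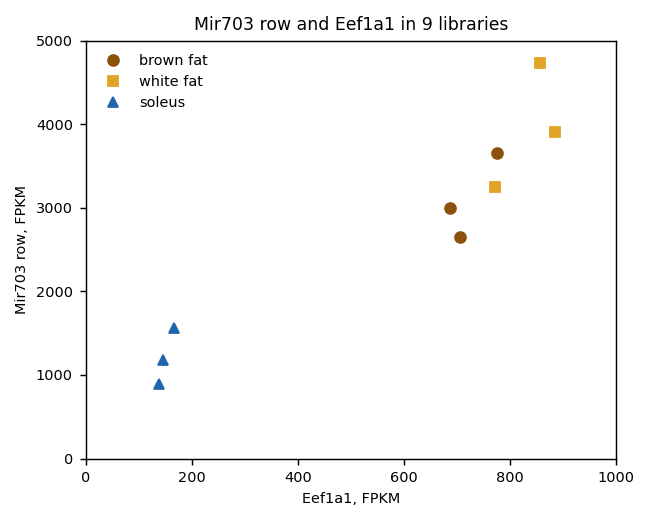
FPKM of the Mir703 row against FPKM of Eef1a1, whose 3′ UTR holds a 98.2% copy of the hairpin. Each point is a library. The 3 soleus libraries, at 138 to 166 FPKM of Eef1a1, have the lowest Mir703 values, and the fat libraries lie together at 687 FPKM or more of Eef1a1.

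Spread between libraries of 1 tissue on the log2(FPKM + 1) scale separated the rows into a steady and an unsteady set. This scale flattens values under 1 FPKM, so a small SD of a low row does not mean that it was well measured. The residual SD had a median of 0.11 log2 units over all tested genes, 0.18 over the 12 microRNA rows and 1.11 over the 7 snoRNA rows. The rows Snora31, Mir761, Snord22, Snora81, Snora78, Snora7a and Snora16a had residual SDs of 0.81 to 1.79, each larger than in at least 99.7% of tested genes. Snora30 was the exception among snoRNAs, at 0.10. Mir703 at 0.31 exceeded 96.4% of tested genes, and Mir133b at 0.28 exceeded 95.4%. Mir1a-2 had a residual SD of only 0.09, yet the SD of its FPKM in white fat was 109% of the mean. For Mir3065 in soleus it was 73.0%. The Mir145a values were only 0.815 (white fat 2) to 4.30 (soleus 1) times what 1 fragment on the RefSeq length would give.

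**Figure D4:**
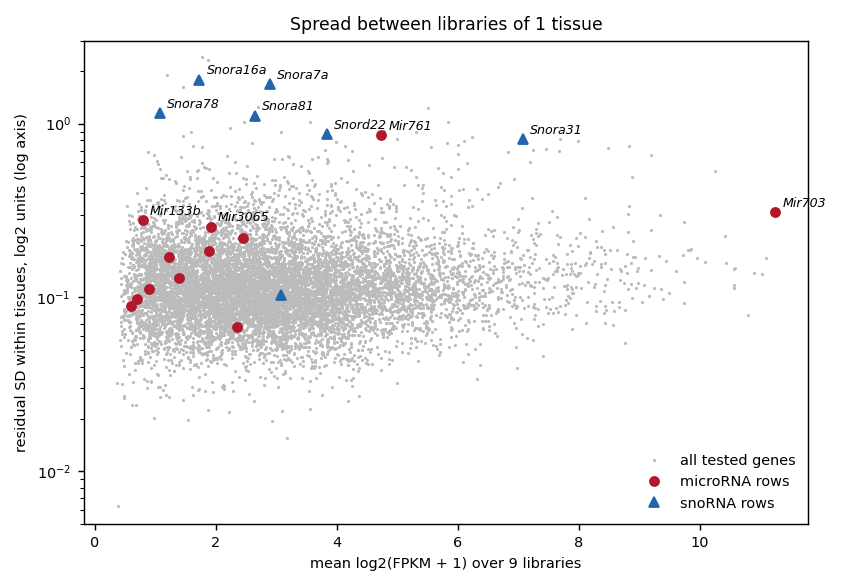
Residual SD within tissues (log axis) against mean log2(FPKM + 1) for all 9913 tested genes (grey), with microRNA rows as circles and snoRNA rows as triangles. Rows with a residual SD above 0.25 are named. Mir761 and 6 of the 7 snoRNA rows lie along the top of the cloud, between 0.81 and 1.79, while Snora30 and most microRNA rows lie within it.

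Snora30 was the steadiest snoRNA. It lies in an intron of Srcap, a chromatin remodeller gene on the same strand. It stood at 10.1, 10.5 and 9.19 FPKM in the brown fat libraries, 7.26, 7.26 and 7.70 in the white fat libraries and 5.40, 4.90 and 6.24 in the soleus libraries. The 3 tissues did not overlap. Brown fat exceeded soleus by 0.75 log2 units (SE 0.09, limma adjusted p = 1.2e-05). Its excess over white fat of 0.38 (SE 0.09, adjusted p = 0.00241) became -0.16 after TPM rescaling, and the excess of white fat over soleus of 0.37 (SE 0.09, adjusted p = 0.00201) became -0.04 after median of ratios scaling, neither of them called. A second snoRNA gene model, Gm25133, is 98.5% identical over its 130 bases, so reads of the pair could be exchanged.

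Snora31, carried in an intron of Tpt1, was the highest snoRNA. Its row stood at 400, 347 and 183 FPKM in the brown fat libraries, 100, 139 and 38.8 in the white fat libraries and 59.0, 83.7 and 192 in the soleus libraries. Brown fat lay above white fat in all libraries but overlapped soleus, since soleus 3 exceeded brown fat 3. The excess of brown over white fat was 1.84 log2 units (SE 0.51, limma adjusted p = 0.00791). Over soleus it was 1.57 (SE 0.51, adjusted p = 0.0161), a call that was lost without brown fat 1 (0.0536), soleus 1 (0.0693) or soleus 2 (0.0552) and after median of ratios scaling (0.0603). Tpt1, which encodes the translationally controlled tumour protein, had another order, with means of 40.4 ± 8.18 FPKM in brown fat, against 43.2 ± 9.40 in white fat and 130 ± 25.2 in soleus (SD, n = 3).

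The values of this row can be read in steps. The commonest ratio of low values between libraries gives their relative depth, and each value times that depth can be read as a multiple of 1 step. For the Snora31 row the 9 values were 8, 4 and 2 steps in the brown fat libraries, 1, 1 and 1 in the white fat libraries and 1, 1 and 2 in the soleus libraries, all within 0.0027 of a whole number. If 1 step is 1 fragment, brown fat held 14 fragments (exact 95% Poisson interval 7.65 to 23.5), white fat 3 (0.619 to 8.77) and soleus 4 (1.09 to 10.2). These intervals cover counting error only, and a step could be more than 1 fragment. Per unit of relative depth the counts were 2.37, 0.503 and 0.733. In white fat 2, the shallowest library, 1 step of this row was worth 139 FPKM. A fragment spread over the full 112 bases of the RefSeq gene would there be worth 0.393 FPKM, 353 times less.

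Of the 19 reported rows, 6 had such steps in at least 3 high values: Snora31, Snora7a, Snord22, Snora16a, Snora78 and Mir761. Their 37 high values lay within 0.0027 of a whole multiple. A looser tolerance of 0.15, tried first and with 2 high values enough, gave 10 reported rows. Both were chosen after the data were seen. Mir145a, Mir1a-2, Mir3966 and Mir30c-2 had fewer than 3 high values, so they could not be judged in this way. The remaining reported rows, Mir703 and Snora30 among them, had no whole step at the stricter tolerance with multiples up to 60. A row with more steps than that could not pass, so steps are not excluded for a row as high as Mir703.

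**Figure D5:**
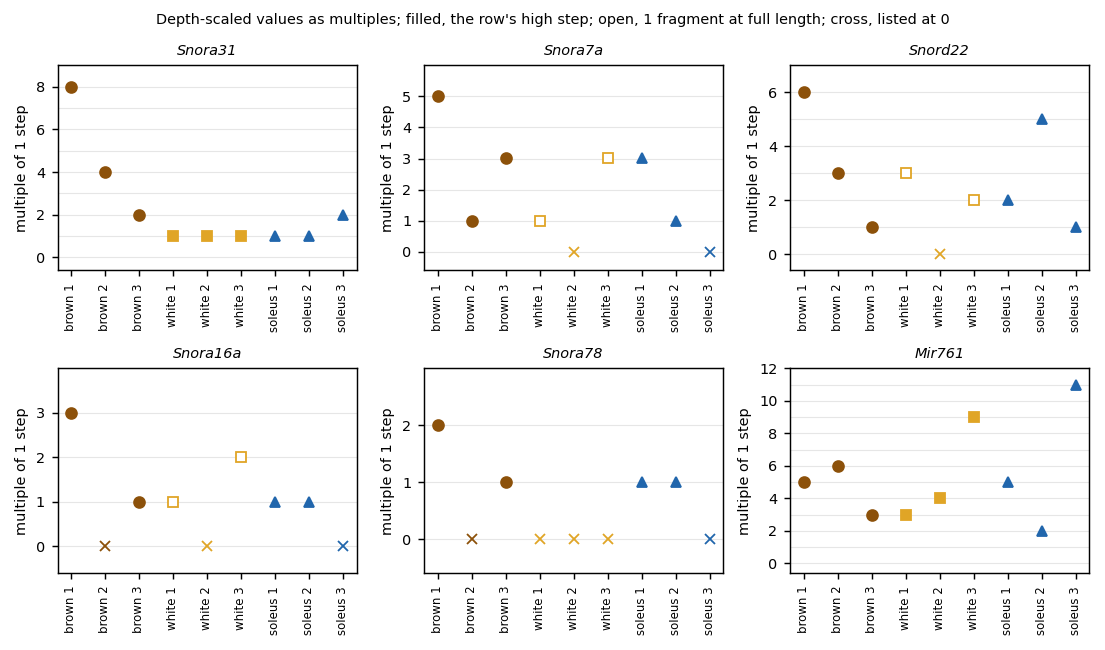
Depth-scaled values of the 6 rows with whole steps, as multiples of 1 step in each of the 9 libraries. Filled points use the row's own high step, open points use the worth of 1 fragment on the full RefSeq length, and crosses are libraries listed at 0. Every point sits on a whole number, and open points occur in white fat alone, for Snora7a, Snord22 and Snora16a.

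In 3 of these rows the libraries were not on 1 scale, and among these 3 white fat was the tissue with the other scale. Rows outside the reported set mixed low and high values in other tissues. Snora15 stood at 0.411 FPKM in brown fat 1 but 51.8 in soleus 2, and Snora17 at 0.426 in soleus 1 but 34.5 in brown fat 1. Low values of this kind were thus not particular to white fat. Snora7a lies within an exon of a transcript of Rpl32, a ribosomal protein gene. Its row stood at 52.2, 18.1 and 57.3 FPKM in the brown fat libraries, 0.247, 0 and 0.287 in the white fat libraries and 37.0, 17.5 and 0 in the soleus libraries. Limma called brown above white fat by 5.06 log2 units (SE 1.06, adjusted p = 0.00134) and white fat below soleus, with a difference of -2.92 (SE 1.06, adjusted p = 0.0238). White fat and soleus overlapped, and this second call was lost in 5 of 19 alternatives, among them leaving out white fat 2, soleus 1 or soleus 2 (adjusted p up to 0.103). In steps, however, brown fat held 5, 1 and 3 and soleus 3, 1 and 0 of the high kind, while the white fat values were 1, 0 and 3 fragments at the worth of the full 129 bases. The high step was 85.0 times that worth. Counted in this way the tissues held 9 (4.12 to 17.1), 4 (1.09 to 10.2) and 4 (1.09 to 10.2) fragments in brown fat, white fat and soleus, with intervals that overlap. Rpl32 itself was lower in brown than in white fat, with means of 219 ± 17.9 and 368 ± 71.7 FPKM (SD, n = 3) and a difference of -0.73 (SE 0.15, adjusted p = 0.00126).

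Snord22 had the same pattern and the largest difference of all reported rows. It is hosted by Snhg1, a noncoding gene known for its many intronic snoRNAs. The row stood at 77.1, 66.9 and 23.5 FPKM in the brown fat libraries, 0.758, 0 and 0.196 in the white fat libraries and 30.3, 108 and 24.6 in the soleus libraries. White fat lay under both other tissues, which overlapped each other. The differences called were 5.31 log2 units for brown over white fat (SE 0.55, limma adjusted p = 6.63e-06) and -5.11 for white fat against soleus (SE 0.55, adjusted p = 5.39e-06). In steps these were 6, 3 and 1 in brown fat and 2, 5 and 1 in soleus, but 3, 0 and 2 fragments of the full length in white fat, and the high step was 102 times that worth. The sums were 10 (4.80 to 18.4) in brown fat, 5 (1.62 to 11.7) in white fat and 8 (3.45 to 15.8) in soleus. Snhg1 had means of 20.8 ± 2.04, 16.7 ± 1.62 and 16.1 ± 1.33 FPKM in the 3 tissues (SD, n = 3). What set the scale of a library was not tested.

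Snora16a repeated this on fewer fragments. It is hosted by Snhg12 and stood at 20.5, 0 and 12.5 FPKM in the brown fat libraries, 0.234, 0 and 0.181 in the white fat libraries and 8.07, 11.5 and 0 in the soleus libraries. These were 3, 0 and 1 high steps in brown fat, 1, 1 and 0 in soleus, and 1, 0 and 2 fragments of the full length in white fat. Its difference between brown and white fat, 2.55 log2 units, did not pass (SE 1.12, limma adjusted p = 0.0621). Snhg12 was lower in brown than in white fat, with a difference of -0.62 (SE 0.11, adjusted p = 0.000324).

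Of the snoRNA rows with whole steps, Snora31 and Snora16a are printed from GENCODE M21 transcripts (GRCm38) with the ACA box, 3 bases from the end, in capitals, and Snord22 with its last CTGA (the D box motif) in capitals. They are 126 to 136 bases long, and are shown to set against the length at which 1 fragment would be worth 1 high step, which is 0.317 bases for Snora31, 2.32 for Snora16a and 1.23 for Snord22.
Snora31: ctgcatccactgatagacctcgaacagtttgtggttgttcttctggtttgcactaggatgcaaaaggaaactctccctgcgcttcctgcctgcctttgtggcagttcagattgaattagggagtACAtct
Snora16a: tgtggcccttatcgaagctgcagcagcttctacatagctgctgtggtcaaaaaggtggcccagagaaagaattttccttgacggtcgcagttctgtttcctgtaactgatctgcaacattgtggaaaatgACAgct
Snord22: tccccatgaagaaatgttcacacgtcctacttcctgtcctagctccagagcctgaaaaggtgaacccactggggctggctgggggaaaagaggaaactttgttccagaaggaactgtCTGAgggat
Snora16a, Snora30, Snora31, Snora78 and Snora7a end in ACANNN on their own strand, as do 83.3% of 42 GENCODE transcripts named Snora and 18.3% of all 1507 snoRNA transcripts. Snora81 does not end so, and Snord22 has no TGATGA (the C box motif searched) in its first 30 bases.

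Mir761 and Snora78 had whole steps on 1 scale. The Mir761 row stood at 17.5, 36.4 and 19.2 FPKM in the brown fat libraries, 21.0, 38.9 and 24.5 in the white fat libraries and 20.7, 11.7 and 73.8 in the soleus libraries, or 5, 6 and 3, then 3, 4 and 9, then 5, 2 and 11 steps. The tissues overlapped and no comparison was called, with limma adjusted p from 0.725 to 0.948. It lies within Nrd1, a metalloprotease gene, on the same strand. The row's means of 24.4, 28.1 and 35.4 FPKM in brown fat, white fat and soleus stood beside 24.2, 27.8 and 35.6 for Nrd1, a likeness picked out after the values were seen. Nrd1 was far steadier, and limma called it lower in brown fat than in soleus (difference -0.53, SE 0.10, adjusted p = 0.000736). Snora78, in an intron of Snhg9, ran from 0 to 5.31 FPKM in brown fat and from 0 to 4.45 in soleus, as 3 and 2 steps in all, and was listed at 0 in all 3 white fat libraries.

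Snora81 had the weakest call. It lies within Eif4a2, a translation initiation factor gene, and stood at 18.3, 5.98 and 8.03 FPKM in the brown fat libraries, 5.11, 10.7 and 4.52 in the white fat libraries and 9.08, 0 and 1.95 in the soleus libraries. All 3 tissues overlapped. Brown fat was called above soleus by 1.78 log2 units (SE 0.70, limma adjusted p = 0.0363), but 9 of 19 alternatives lost the call, among them leaving out brown fat 1, brown fat 3, soleus 2 or soleus 3, with adjusted p up to 0.153. Eif4a2 was not called between those tissues (difference 0.12, SE 0.09, adjusted p = 0.242).

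Single libraries held most of the unreported signal. Snora5c was listed at 0 in 8 libraries and stood at 1064 FPKM in soleus 2, which also held Mir7-1 at 155 FPKM and Snora41 at 73.5. Snora15 was high in both soleus 2 (51.8 FPKM) and soleus 3 (59.3). Snora69 stood at 64.1 FPKM and Mir466i at 34.9 in brown fat 3, and Snora70 at 51.1 in white fat 2. Of the 565 rows, 22 were at 1 FPKM or more in soleus 2, against 11 to 19 in each of the other libraries.

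Lowest values showed the opposite departure in some microRNA rows. In 4 reported rows the lowest value above 0 was less than 0.5 of what 1 fragment on the RefSeq length would give. The ratio was 0.0504 for Mir1a-2, 0.0521 for Mir133b, 0.0703 for Mir3065 and 0.495 for Mir1941.

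Genes that make or carry these RNAs differed in both directions. The list for microRNA processing named Argonaute genes too, but none was found among the named rows, so none was compared. Of 12 tested genes for microRNA processing or partners of Argonaute, brown fat had 4 higher and 4 lower than white fat. Against soleus, 8 were higher and 2 lower in brown fat, and 8 higher and 1 lower in white fat. Their median differences were -0.09, 0.46 and 0.41 log2 units, against 0.03, 0.29 and 0.35 for all tested genes. The called shares of 66.7%, 83.3% and 75% stood beside 72.8%, 78.5% and 84.2% of tested genes. Ddx17, an RNA helicase that works with Drosha, had the highest mean, at 45.8 ± 2.03 FPKM in brown fat, against 37.6 ± 4.28 in white fat and 24.3 ± 2.64 in soleus (SD, n = 3). Tarbp2, a partner of Dicer, was higher in brown than in white fat by 0.93 (limma adjusted p = 1.39e-05), and Tnrc6b, a partner of Argonaute, by 0.70 (adjusted p = 0.000354). Adar, an RNA editing enzyme, was lower in brown fat with a difference of -0.43 (adjusted p = 0.000315), as was Drosha with -0.32 (adjusted p = 0.00446). Prkra, another partner of Dicer, had the largest difference from soleus, 1.83 in brown fat (adjusted p = 1.03e-09) and 1.54 in white fat (adjusted p = 3.71e-09).

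Of 19 genes for the snoRNA-protein particle and its assembly, brown fat had 7 higher and 6 lower than white fat, and 9 higher and 6 lower than soleus, and white fat had 5 higher and 7 lower than soleus. These are shares of 68.4%, 78.9% and 63.2%, beside 72.8%, 78.5% and 84.2% of all tested genes, with median differences of -0.09, 0.18 and -0.08 log2 units. Nop10, an H/ACA core protein, had the highest mean, at 121 ± 6.31 FPKM in brown fat, against 57.0 ± 5.25 in white fat and 85.6 ± 7.02 in soleus (SD, n = 3). It was higher in brown than in white fat by 1.07 log2 units (limma adjusted p = 1.73e-06). Ruvbl2, an ATPase of the assembly machinery, was higher in brown fat by 1.31 (adjusted p = 7.06e-08). The assembly factor Rpap3 was lower by a difference of -0.66 (adjusted p = 6.71e-06), and the C/D core protein gene Nop56 by -0.51 (adjusted p = 0.000338).

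Of 8 tested noncoding genes that host snoRNAs, brown fat had 2 higher and 4 lower than white fat. Snhg6, the highest of them on average, and Snhg1 were the 2 higher ones, by 0.39 and 0.30 log2 units (limma adjusted p = 0.00333 and 0.0176). Snhg11 and Snhg5 were lower with differences of -1.86 (adjusted p = 6.04e-07) and -1.31 (adjusted p = 3.15e-06). Against soleus, 3 were higher and 3 lower in brown fat, and 3 higher and 2 lower in white fat. The called shares were 75%, 75% and 62.5%, beside the same 72.8%, 78.5% and 84.2% of tested genes, and the median differences were -0.25, -0.15 and -0.05 log2 units. Among 14 other short noncoding genes, 3 were tested and Scarna17, a guide RNA of Cajal bodies, was called in all 3 comparisons. It stood at 5.05, 5.41 and 6.38 FPKM in the brown fat libraries, 0.298, 0.825 and 0.635 in the white fat libraries and 2.54, 1.99 and 1.85 in the soleus libraries, with no overlap between tissues. Rmrp and Rpph1, RNAs of RNase complexes, reached 29.4 and 22.4 FPKM in brown fat 1 but at most 3.99 and 2.63 elsewhere.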

How the data were processed

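RNA-seq was made from brown fat, white fat and soleus, 3 libraries each, with a TruSeq RNA kit from TRIzol RNA, per the labels' protocols. The authors deposited one table of FPKM for 18401 RefSeq rows. TopHat 1.4.1, Cufflinks 2.0.1 and mm9 are named, per the submitters' processing notes. Read totals, strand and multi-read settings are not given in the sources used here. Symbols came from a RefSeq table for 18305 rows and from GENCODE for 38, and rows of 1 symbol were summed; Mir1932, Mir1a-2, Mir3065, Mir3966 and Snora30 have a second row that is 0 or under 0.3 FPKM. Reference coordinates (GRCm38) served for neighbours and sequences only, and hairpins and snoRNAs were compared with GENCODE transcripts at 90% identity and coverage. Mir9-3hg, a host gene, met the symbol rule.

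Limma 3.58.1 (R 4.3.3, mean-variance trend, 6 residual degrees of freedom, two-sided) was fitted on log2(FPKM + 1) for 9913 genes at 1 FPKM or more in at least 3 libraries. On simulated data with changes given to genes of higher level, it recovered 76% of changes of 0.5 and 96% of 1 log2 unit between brown and white fat among 9913 genes, with 7 false calls; low rows were not covered. Members and gene lists were chosen with earlier results of these data known. Values in all libraries are given for Mir703, the 10 highest members and the 12 with the largest called differences, and from lists for the highest gene and the 2 most changed per direction.

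Relative depths, from the most frequent ratio of low values (up to 0.3 FPKM) between libraries, were 2.78, 1.60 and 1.52 for brown fat 1 to 3, 1.39, 1 and 3.58 for white fat 1 to 3 and 2.35, 1.66 and 1.45 for soleus 1 to 3, with 34 of 36 pairs of libraries within 0.03 log2 units. The worth of 1 fragment, 0.0440 FPKM for a kilobase at depth 1, came from 6783 low values of longer genes with 220 bases taken from their length. That subtraction was added after a first estimate did not match the short rows, so the match with them is not independent. The step analysis was also designed after the data were seen.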

Additional observations from a re-analysis of the deposited data

How the results depend on the processing

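The 19 alternatives were pseudocount, filter, scaling, replicate block, variance model, weights, row choice, tissues fitted, and leaving out each library. There were 53 comparisons of a reported row without a tissue listed wholly at 0. Of these, 39 stayed on the same side of the threshold, 4 lost a call somewhere with the sign kept, 8 gained one and 3 changed sign. Each of the 3 lost its call where the sign changed. Mir30c-2 between white fat and soleus also lost it in settings that kept the sign. The 3 sign changes were Snora30 between brown and white fat (-0.16) and Mir30c-2 between white fat and soleus (0.088) after TPM rescaling, and Snora30 between white fat and soleus (-0.040) after median of ratios scaling. A further 9 uncalled comparisons changed sign while uncalled. Rows called between brown and white fat went from 8 to 13 with array weights; the cause was not tested. Leaving out 1 library gave 8 to 11 called rows for brown against white fat, 12 to 14 for brown fat against soleus and 11 to 15 for white fat against soleus. The tested set was held fixed in these fits, a choice made after seeing that applying the filter anew left 16 or 18 of the 19 rows and 7 to 11, 9 to 13 and 8 to 15 calls. Snora7a between white fat and soleus lost its call with a pseudocount of 0.1, with no filter, and without white fat 2, soleus 1 or soleus 2 (adjusted p up to 0.103). Same-numbered libraries did not deviate together (correlations of -0.22 to 0.08), so the numbers were not used as pairs. Such correlations, with 3 libraries per tissue, cannot show whether libraries came from the same mouse. With the replicate block limma called 8, 14 and 13 rows, as without it. Rescaling moved the median of all tested genes from 0.03 to -0.50 for brown against white fat and from 0.35 to 0.93 for white fat against soleus (TPM), and from 0.29 to -0.01 and from 0.35 to -0.02 for the comparisons with soleus (median of ratios). Values of the step-valued rows rest on 1 to 11 steps, and how small a difference limma could detect in them was not tested.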
